A study of Drosophila melanogaster with 2 samples.

Results

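Genes for basic leucine zipper (bZIP) transcription factors of the PAR and C/EBP types were examined for peaks of the tagged fly factor CG7786. The 6 genes are CG7786 itself, Pdp1, vri and gt, of the PAR type or close to it, and slbo and Irbp18, of the C/EBP type. They were taken by name as the closest bZIP relatives and partners of the tagged factor, and are 6 of 13945 protein-coding genes on the 6 chromosome arms used. The data are chromatin immunoprecipitation and sequencing (ChIP-seq) of whole Drosophila melanogaster embryos, both sexes together, aged 0 to 24 hours. The flies stably carried a transgene with a C-terminal GFP (eGFP in the library descriptions) fused to CG7786, and all libraries carried it. There were 2 libraries of 1 group, biological replicates 2 and 3, with no second condition. The labels name an anti-GFP antibody in one place and CG7786 as the antibody in another. Whether the flies also kept the untagged gene product, and in which cells the fusion was made, is not stated in the labels.

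bZIP factors bind DNA as dimers: a basic region contacts the DNA, and a leucine zipper holds the partners together. PAR factors carry a proline- and acid-rich stretch before the basic region, and in vertebrates they and the C/EBP factors bind related palindromic sites. In the fly circadian clock, Pdp1 activates and vri represses the gene Clk, while gt acts as a repressor in segment patterning of the early embryo. slbo is the fly C/EBP and is known for the migration of border cells in the ovary, and Irbp18 encodes a small C/EBP-type protein that dimerises with the stress-response factors Xrp1 and crc.

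The authors' reproducible list, made with the irreproducible discovery rate (IDR) procedure, holds 4045 peaks, each with a summit and a signal value. That value is the caller's own score, not a read count, and was used only to rank peaks within a list. Rank 1 is the strongest peak. Of the 4045 IDR summits, 8 lay in the spans of the 6 genes (gene body plus 2000 bp upstream) and 21 lay within 20 kb of a gene body. Windows of 200 bp centred on 5 of these summits follow as reference sequence on dm6, plus strand, from Release 6 of the fly genome. The first 3 are the strongest summit inside Pdp1, the one Pdp1 window with an E-box, and the strongest summit inside vri. The others are the summit 199 bp upstream of a vri start site and the strongest summit near Irbp18 outside exons. The window named for the vri start site ends upstream of that site, which is at 5299647. Capitals mark an E-box (CACGTG) and a GAGA match (GAGAGA on either strand) in the second sequence. In the fifth they mark a match with 1 mismatch to the PAR sites TTACGTAA or TTATGTAA.
Pdp1 intron, 3L:7850985-7851184: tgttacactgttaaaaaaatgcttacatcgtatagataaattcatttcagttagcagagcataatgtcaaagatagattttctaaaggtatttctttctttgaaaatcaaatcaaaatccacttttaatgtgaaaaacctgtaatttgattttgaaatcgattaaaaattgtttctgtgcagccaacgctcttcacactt
Pdp1 intron with E-box, 3L:7863702-7863901: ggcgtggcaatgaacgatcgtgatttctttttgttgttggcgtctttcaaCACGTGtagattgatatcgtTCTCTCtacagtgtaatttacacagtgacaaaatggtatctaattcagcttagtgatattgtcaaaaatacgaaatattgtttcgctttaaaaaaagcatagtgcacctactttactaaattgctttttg
vri intron, 2L:5293328-5293527: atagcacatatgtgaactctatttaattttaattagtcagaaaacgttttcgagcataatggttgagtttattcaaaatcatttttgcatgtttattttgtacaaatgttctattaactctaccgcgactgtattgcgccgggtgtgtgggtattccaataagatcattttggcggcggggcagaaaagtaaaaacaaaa
vri start site, 2L:5299348-5299547: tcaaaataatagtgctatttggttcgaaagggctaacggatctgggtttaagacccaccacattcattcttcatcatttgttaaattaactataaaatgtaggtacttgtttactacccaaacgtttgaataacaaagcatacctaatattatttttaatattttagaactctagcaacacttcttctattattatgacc
JIL-1 intron near Irbp18, 3L:11084695-11084894: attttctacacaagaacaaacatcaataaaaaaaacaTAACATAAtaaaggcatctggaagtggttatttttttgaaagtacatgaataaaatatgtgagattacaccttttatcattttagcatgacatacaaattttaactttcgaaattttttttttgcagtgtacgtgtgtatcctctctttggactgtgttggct

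None of the 21 windows held an exact PAR site on either strand, where 1.95% of all 4045 IDR windows held one. Widening the windows to 400 bp left the count at 0 of 21, against 3.58% of all windows. With 1 mismatch allowed, 4 of 21 windows held a match, against 34.8% of all windows, and all 4 lay in the neighbourhood of Irbp18. The C/EBP site TTGCGCAA occurred in 1 of the 21 windows, 15046 bp upstream of CG7786, where 0.222% of all windows held it. The match lay 80 bp from the summit, near the window edge, and the count rests on that single window. The mixed site TTACGCAA and the C/EBP-ATF site TGATGCAA were in 0 of 21, against 0.569% and 0.667% of all windows. At such low shares over all windows, 0 of 21 does not set these windows apart from the rest of the list.

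Among the other sites searched on both strands, GAGAGA occurred in 5 of 21 windows, against 10.4% of all windows. These 5 were near Pdp1 (2 windows), slbo (2 windows) and vri (1 window). Widened to 400 bp, 7 of 21 windows held GAGAGA, against 22.2% of all windows, and both counts are small. The E-box CACGTG, a site of the bHLH clock factors among others, occurred in 1 of 21 windows, against 2.50%. It lay in the Pdp1 intron window printed above, 47 bp before the summit on the plus strand. The promoter element TATCGATA was found in 1 of 21 windows, against 4.94%, at the start site of JIL-1 near Irbp18. AP-1 (TGACTCA), CRE (TGACGTCA) and Zelda (CAGGTAG) sites were in 0 of 21, against 1.93%, 0.321% and 0.964% of all windows. The 21 windows had a median GC content of 34.5% (28.5% to 49%), against 37% for all windows (quartiles 33% and 41.5%). A match describes the letters in a window and is not evidence that a factor binds there.

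Counted by gene, 3 of the 6 had an IDR summit in the span, where 27.7% of all protein-coding genes did. They were Pdp1 with 3 summits, vri with 3 and Irbp18 with 2, while CG7786, gt and slbo had none. The 2 Irbp18 peaks have overlapping intervals. Summits within 500 bp of an annotated transcription start site (TSS) were found for 2 of 6, vri and Irbp18, against 19.5% of all genes. Within 20 kb of the gene body 5 of 6 had a summit, all but gt, against 75.7% of all genes, so the wide reach shows little about any one gene. With 6 genes each count moves by a large step when 1 gene changes side.

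**Figure D1:**
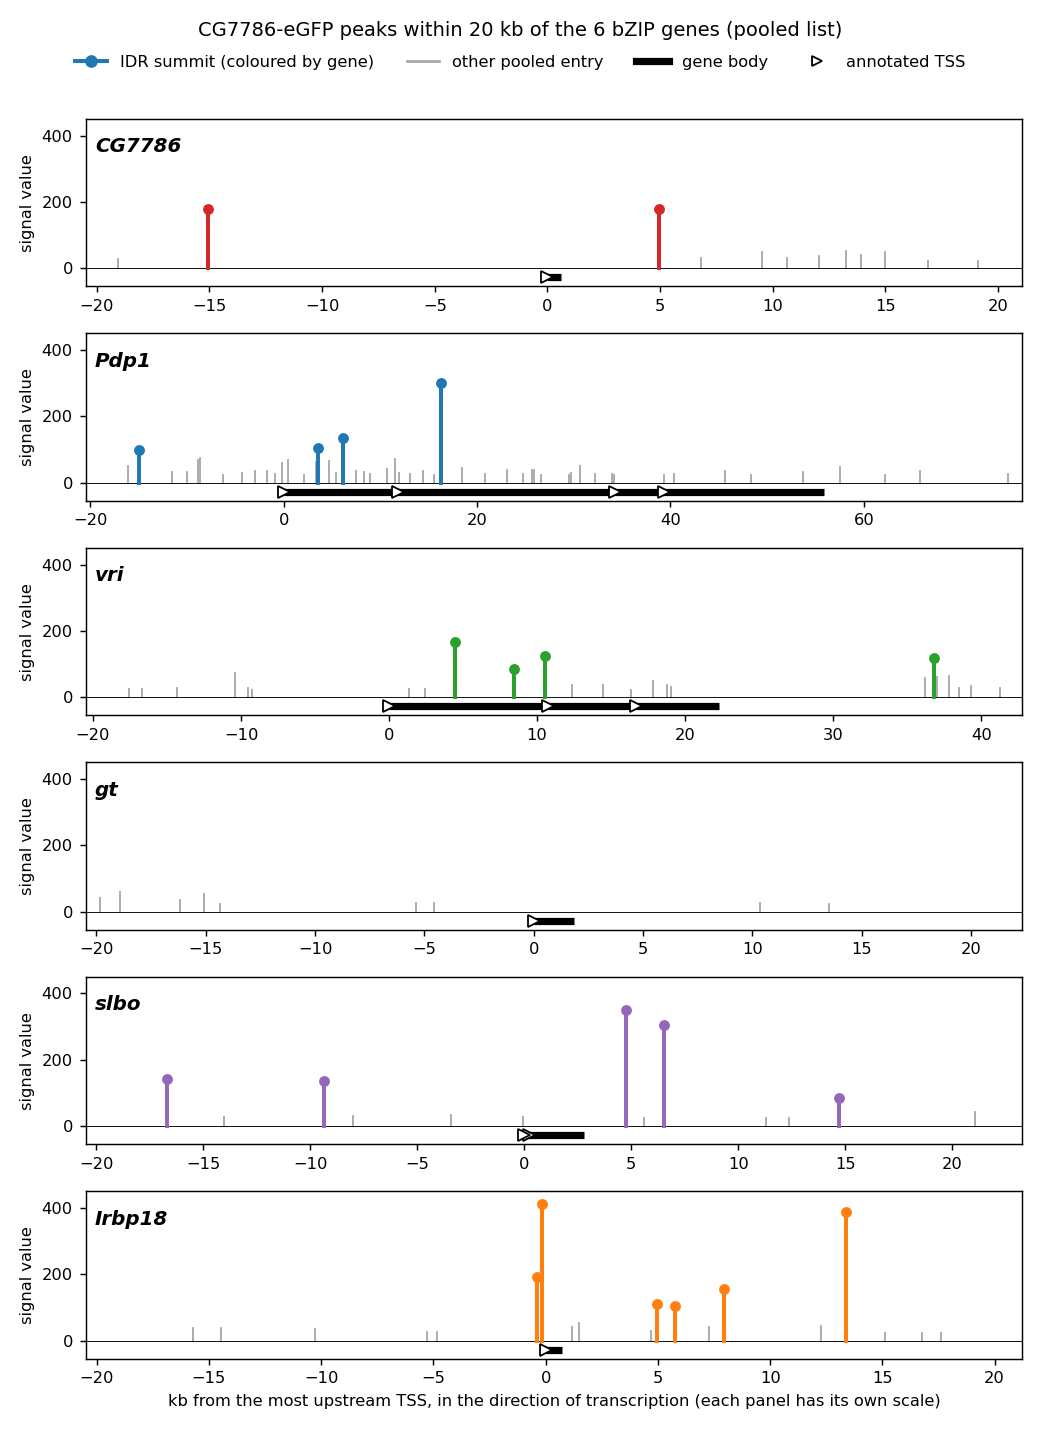
Positions and signal values of the pooled peak list within 20 kb of each of the 6 genes; coloured stems with dots are IDR summits, grey lines are other pooled entries, black bars are gene bodies and triangles are TSSs. The x axis gives kb from the most upstream TSS in the direction of transcription, and each panel has its own scale; gt has no coloured stem, slbo has its strongest stems beyond its 3′ end, and Irbp18 has its strongest beside its TSS.

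Gene length bears on the span counts. Pdp1 is 55912 bp long and vri 22280 bp, while the other 4 genes are between 579 and 2786 bp. Of 1013 genes with a body of 20000 bp or more, 52.0% had an IDR summit in the span and 19.1% had at least 3. Of 8623 genes with a body under 3000 bp, 19.6% had a summit in the span and 2.54% had at least 2, as Irbp18 did. Over all genes, 2.41% had at least 3 summits in the span.

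CG7786 (FBgn0034096, 2R:16234358-16234936, minus strand) is the tagged gene, an uncharacterised predicted PAR factor. Its span held no entry at all in the pooled, replicate 2 or replicate 3 relaxed lists, each of which runs down to 30000 entries including background. The nearest entry to its TSS lay 4938 bp away in the pooled list, 2668 bp in replicate 2 and 4936 bp in replicate 3. Among genes with a body under 3000 bp, 62.4% had a pooled entry in the span. Its neighbourhood had 2 IDR summits, and both sat at start sites of other genes. The summit 4360 bp beyond its 3′ end had a pooled signal value of 178.8 (rank 1202), and ranked 1587 in replicate 2 and 1055 in replicate 3. It lay 200 bp from the TSS of CG15701, and CG15706 also had a TSS within 500 bp of it. The summit 15046 bp upstream had 179.8 (rank 1189), and ranked 1179 in replicate 2 and 1236 in replicate 3. That summit lay 187 bp from the TSS of CngA, a gene for a cyclic-nucleotide-gated channel subunit, and is the window with the C/EBP site. Within 20 kb, 54.7% of all genes had at least as many summits as CG7786.

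Pdp1 (FBgn0016694, 3L:7811458-7867369, minus strand) encodes the PAR factor that activates Clk and is also known for muscle gene control. All 3 of its IDR summits lay in introns. The strongest, at 3L:7851085, had a pooled signal value of 299.6 (rank 465), with 133.1 (rank 368) in replicate 2 and 161.8 (rank 575) in replicate 3. It lay 4463 bp downstream of the TSS at 7855548, which serves 7 of the 13 annotated transcripts. Its interval was 135 bp wide, against the usual 404 bp of the list. The summits at 7861233 and 7863802 were weaker, with 135.2 (rank 1907) and 105.9 (rank 2734) in the pooled list. In the replicates, 7861233 ranked 2030 in replicate 2 and 1723 in replicate 3, and 7863802 ranked 2083 in replicate 2 and 3337 in replicate 3. The second of these, 3567 bp downstream of the most upstream TSS, is the E-box window. One more summit lay 14976 bp upstream in an intron of CG32365, with 99.0 (rank 3010), and ranked 3284 in replicate 2 and 2847 in replicate 3.

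No IDR summit lay within 500 bp of any of the 4 Pdp1 TSSs, but 2 of them had entries just below the list, which ends at rank 4045. The entry 317 bp from the TSS at 7855548 had 71.0 (rank 4667) in the pooled list, 28.3 (rank 5983) in replicate 2 and 38.8 (rank 5187) in replicate 3. The one 488 bp from the TSS at 7867369 had 69.6 (rank 4786) in the pooled list and 43.0 (rank 2924) in replicate 2. In replicate 3 the strongest entry within 500 bp of that TSS had 25.6 (rank 8745), but it lay on the other side, 233 bp upstream. An entry 634 bp downstream, just outside the 500 bp window, had 29.9 (rank 7146) in replicate 3. The replicates thus placed this start site on different sides of rank 4045, by entries at different places. The deposited −log10 q-values of these pooled entries were 3.12 and 2.87, against 3.91 for every IDR peak. With the 4045 strongest entries of replicate 2 in place of the IDR list, Pdp1 had 5 summits in the span and a TSS summit. With those of replicate 3 it had 3 summits in the span. The span held 38 pooled entries, 29 in replicate 2 and 37 in replicate 3.

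vri (FBgn0016076, 2L:5288944-5311223, plus strand) encodes a repressor of Clk that is related to vertebrate NFIL3 (E4BP4). Its strongest summit in the pooled list lay in an intron 4484 bp downstream of the TSS at 5288944. That summit, at 2L:5293428, had a pooled signal value of 166.3 (rank 1352), with 94.0 (rank 744) in replicate 2 and 66.3 (rank 2563) in replicate 3. The 2 libraries thus ranked it more than 3-fold apart. The summit at 5299448 lay 199 bp upstream of the TSS of the single transcript vri-RC. It had 123.8 (rank 2180) in the pooled list, 48.9 (rank 2400) in replicate 2 and 73.8 (rank 2203) in replicate 3, close to each other in rank. In replicate 3 it was stronger than the summit at 5293428, so the replicates differed on the strongest vri summit. An intronic summit at 5297411 was near the end of the list with 84.8 (rank 3719). It lay 517 bp from the TSS of the non-coding gene lncRNA:CR45730, just outside the 500 bp limit. It ranked 3084 in replicate 3 and 5277 in replicate 2, where it lay outside the 4045 strongest entries.

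The other vri start sites carried little. The TSS at 5288944 had no entry within 500 bp in any list. The TSS at 5305650, which serves 3 transcripts, had 1 pooled entry with 21.5 at rank 29832 of 30000, none in replicate 2 and 1 in replicate 3 at rank 18661. Beyond the 3′ end, 14535 bp away in an intron of Ncoa6, a gene for a nuclear receptor coactivator, a summit had 118.0 (rank 2330), and ranked 1875 in replicate 2 and 2539 in replicate 3. The vri span held 11 pooled entries, 12 in replicate 2 and 11 in replicate 3.

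gt (FBgn0001150, X:2427113-2428967, minus strand), the gap gene giant, was the only one of the 6 without an IDR summit within 20 kb. Its span had no entry in any of the relaxed lists. The nearest entry lay 4570 bp from its TSS in the pooled list, 4547 bp in replicate 2 and 4569 bp in replicate 3. These upstream intergenic entries were weak, with 26.1 (rank 21764) for the nearest pooled one and 25.6 (rank 22597) for the next, 5394 bp from the TSS. Within 20 kb there were 9 pooled entries, 12 in replicate 2 and 7 in replicate 3. The strongest pooled one, 59.4 (rank 5909), lay 20 bp from the TSS of boi, a gene for a Hedgehog co-receptor, and had a −log10 q-value of 2.26. The next, 53.4 (rank 6833), was 61 bp from the TSS of tko, which encodes a mitochondrial ribosomal protein. gt is transcribed in the first hours of development, and the libraries average embryos of all ages from 0 to 24 hours. Occupancy of a gene in a few cells or at a short stage cannot be told apart from weak occupancy here.

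slbo (FBgn0005638, 2R:24331522-24334307, minus strand) had no IDR summit in its span but 2 of the strongest just beyond its 3′ end. The nearer one, at 24329560, lay 1962 bp past the gene and 170 bp from the TSS of the non-coding gene lncRNA:CR44810. It had 351.3 (rank 329) in the pooled list, 155.9 (rank 256) in replicate 2 and 194.3 (rank 404) in replicate 3. Another at 24327786, 3736 bp past the gene in an intron of lncRNA:CR44810, had 305.5 (rank 446), and ranked 553 in replicate 2 and 406 in replicate 3. Both intervals were narrow, 218 and 227 bp. slbo has the nearest protein-coding TSS to each of them, at 4542 and 6316 bp, but nothing here links a peak to the gene it acts on.

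At the slbo promoter itself the pooled list had 1 entry, 65 bp from the TSS at 24334307, with 28.4 (rank 18890) and a −log10 q-value of 0.238. The strongest replicate 2 entry there ranked 25307, and the strongest replicate 3 entry there ranked 21203. The remaining summits were an intergenic one 11918 bp past the gene with 85.1 (rank 3704) and 2 upstream at other start sites. Of these, 135.2 (rank 1908) lay 37 bp from the TSS of bs, the fly serum response factor, and 142.4 (rank 1757) lay 388 bp from the TSS of CG44812. The intergenic one ranked 4669 in replicate 2, below the 4045 strongest. Within 20 kb slbo had 5 summits, and 11.9% of all genes had at least that many.

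Irbp18 (FBgn0036126, 3L:11097446-11098186, minus strand) had the strongest summit of all 21 in the pooled list and in replicate 3. In replicate 2 the summits at 3L:11084795 (rank 212) and, beside slbo, at 2R:24329560 (rank 256) ranked above it. At 3L:11098366 the pooled signal value was 412.1 (rank 229), with 146.8 (rank 298) in replicate 2 and 267.1 (rank 188) in replicate 3. It lay 180 bp upstream of the Irbp18 TSS. It was also 46 bp from the TSS at 11098412 of APP-BP1, a divergent gene for a subunit of the Nedd8-activating enzyme, whose TSS is 226 bp from that of Irbp18. The peak can therefore not be assigned to one of the genes, and it also lies in an exon of the overlapping gene CG33947. A second summit at 11098565 had 190.6 (rank 1074), and ranked 1947 in replicate 2 and 1271 in replicate 3. It lay 379 bp upstream of Irbp18 and 64 bp from another APP-BP1 TSS. The intervals of the 2 peaks, 11098231-11098445 and 11098363-11098766, overlap, so they are not clearly 2 separate sites. Neither summit is inside the Irbp18 body.

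Downstream of Irbp18 lay 4 more summits in or beside JIL-1, the gene of a histone H3 kinase. The intronic one at 3L:11084795 had 389.1 (rank 264), with 168.3 (rank 212) in replicate 2 and 225.3 (rank 290) in replicate 3. It ranked below the Irbp18 promoter summit in the pooled list and replicate 3, and above it in replicate 2. The others had pooled values of 156.1, 110.9 and 104.2. The one at the JIL-1 TSS, 19 bp from it, ranked 2550 in the pooled list and 1661 in replicate 3 but 9133 in replicate 2. The neighbourhood is gene-dense, with 15 other protein-coding genes within 20 kb. Of all genes, 6.27% had at least the 6 summits that Irbp18 had within 20 kb.

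**Figure D2:**
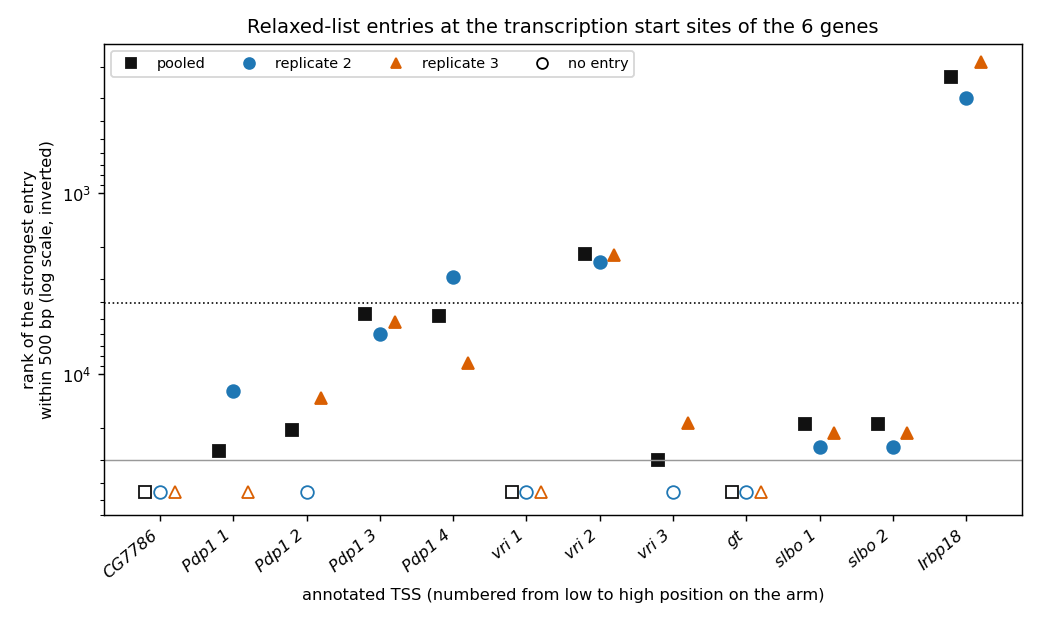
Rank of the strongest entry within 500 bp of each of the 12 annotated TSSs of the 6 genes in the pooled, replicate 2 and replicate 3 relaxed lists, on an inverted log scale, with open symbols for no entry. The dotted line is rank 4045, the size of the IDR list, and the grey line is rank 30000, the end of each list; Irbp18 and the middle vri TSS lie above the dotted line in all 3 lists, and CG7786, gt and the first vri TSS have no entry in any.

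Over the wider pooled relaxed list, 4 of 6 spans held an entry, against 72.9% of all genes. These were Pdp1 with 38, vri with 11, Irbp18 with 2 and slbo with 1. Both genes without an entry, CG7786 and gt, have bodies under 3000 bp, as do Irbp18 and slbo. Of genes of 20000 bp or more, like Pdp1 and vri, 95.2% held a pooled entry. Per length, the Pdp1 span held 656 pooled entries per Mb, against a median of 196 per Mb over these 1013 long genes, of which 2.47% had at least as many per Mb. The vri span held 453 per Mb, a density that 13.9% of the long genes reached. These densities count entries of a list that includes background, not reproducible peaks. Of the 38 Pdp1 entries 3 were IDR peaks, and the weakest had 22.2 (rank 28287) and a −log10 q-value of 0.0592. Some neighbouring entries have overlapping intervals, as at 7833215 and 7833439 in Pdp1, so they are not clearly separate sites.

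The 21 summits had a median pooled signal value of 142.4, against 130.1 for all 4045 IDR summits, and 13 of the 21 were above that of the whole list. The top decile of 404 summits took in 3 of the 21, at Irbp18, beside slbo and in JIL-1. The 5 summits with the highest values were also the 5 with intervals narrower than 404 bp, where 20.7% of all IDR intervals were narrower than that. Narrow intervals go with strong entries over the whole pooled list: 843 of its 30000 entries were narrower, and 839 of these were IDR peaks. No share among peaks of like rank was computed. By place, 9 of the 21 were within 500 bp of a TSS of any gene, 10 were in introns, 1 was in a 5′ UTR and 1 was intergenic. Only 3 of the 9 start-site summits were at a TSS of a member gene, 1 at vri and 2, with overlapping intervals, at Irbp18. Within 20 kb the 6 genes had a mean of 3.5 summits per gene and 64.8 per Mb. The same windows around all protein-coding genes had 2.13 per gene and 45.4 per Mb, where a summit counts for each gene it is near. The members differed widely, with 147 per Mb for Irbp18, 117 for slbo and 64.2 for vri. CG7786 had 49.3 per Mb, Pdp1 41.7 and gt 0, so the mean does not describe each gene.

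Both replicates were ranked at each summit by the strongest entry within 200 bp. Of the 21, 18 had a summit among the 4045 strongest entries of both replicate lists, against 77.5% of all IDR summits. The 3 others, at vri 5297411, beyond slbo at 24319604 and at the JIL-1 TSS, lay outside the 4045 strongest entries of replicate 2 and inside those of replicate 3. Each had a replicate 2 entry further down that list, at ranks 5277, 4669 and 9133. By replicate, 18 of 21 were in the strongest entries of replicate 2, against 85.8% of all, and 21 of 21 in those of replicate 3, against 91.2%. The larger of the 2 ranks was a median 1.37 times the smaller, against 1.37 for the 3976 IDR summits with an entry in both. It was at least 3 times the smaller at 2 of 21, against 4.70% of the 3976. These were the vri summit at 5293428, ranked better in replicate 2, and the JIL-1 TSS, ranked better in replicate 3. The replicate 2 summits lay a median 12 bp from the IDR summit and at most 128 bp, and the replicate 3 summits a median 4 bp and at most 26 bp.

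**Figure D3:**
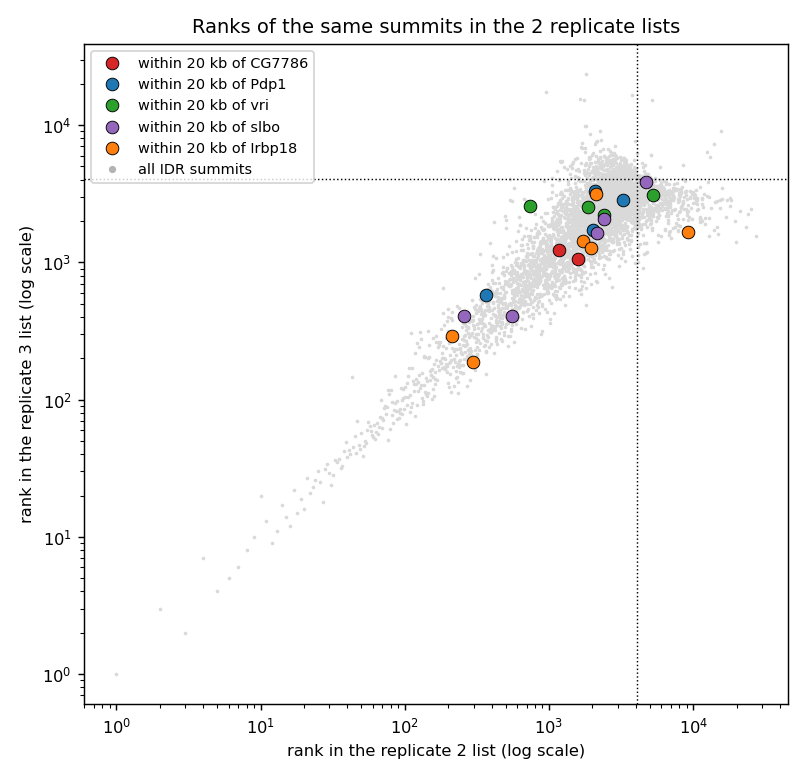
Rank of each IDR summit in the replicate 2 list (x) and the replicate 3 list (y), both on log scales, for the 21 summits within 20 kb of the 6 genes (coloured) and all IDR summits with an entry in both lists (grey). The dotted lines mark rank 4045; 3 coloured points lie to the right of the vertical line and none above the horizontal one.

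Other bZIP genes were counted by the same rules for comparison. Of 18 of them, 7 had a TSS summit, against 19.5% of all protein-coding genes. A summit in the span was found for 10, against 27.7%, and one within 20 kb for 17, against 75.7%. These genes were longer, with a median body of 6077 bp against 2166 bp over all genes. Those with a TSS summit were Atf3, REPTOR, CrebB, cnc, Xbp1, Atf-2 and Xrp1, and kay, CrebA and maf-S had one in the span only. Their strongest span summit was at Atf3, with 1300 (rank 21), far above the 412.1 of Irbp18. Of the named partners of Irbp18, Xrp1 had 1 span summit with 88.1 (rank 3522). The other partner, crc, had none, and its best pooled entry ranked 4940.

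The clock loop genes around Pdp1 and vri were Clk, cyc, per, tim, cwo and cry. A summit in the span was found for 1 of these 6, cwo, with 2 summits and a highest value of 169.4 (rank 1317), against 27.7% of all genes, and 0 of 6 had a TSS summit, against 19.5%. Clk, the shared target of Pdp1 and vri, had 1 pooled entry in its span, with 39.8 (rank 10652). Pdp1 and vri had 3 span summits each, but both are longer than each of these genes, of which 5 of 6 had none. With so few genes, 1 of 6 does not set the clock genes apart from the 27.7% of all genes.

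Genes with the same number of span summits were ordered by how near their strongest signal values lay to those of a member over the pooled, replicate 2 and replicate 3 lists, as a distance on the log2 scale. For Irbp18 the nearest of 679 genes was APP-BP1 at distance 0, since it shares the same peaks, followed by spt4 and muskelin at 0.0601. The values of spt4 and muskelin were identical, so they do not count as separate cases. For Pdp1 the nearest of 189 genes was P5CDh1 at 0.0759, with CG13392 and CG13384, also identical in their values, at 0.0848. For vri they were trio at 0.34, ksh at 0.34 and Ptpmeg at 0.40 of 189, so no gene was as near as for the other members. The vri values came from the summit at 5293428 in the pooled and replicate 2 lists and from that at 5299448 in replicate 3. The 3 values of a gene are not independent, because the pooled list holds both replicates.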

How the data were processed

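Peaks of CG7786-eGFP from 2 libraries of whole embryos, replicates 2 and 3, were used as the authors' dm6 lists: relaxed lists of 30000 entries for the pool and each replicate, and the IDR list of 4045. Each list was called against a control alignment, which is not analysed here. The deposited signal value is a score on the caller's scale, and the deposited −log10 q-value is 3.91 for every IDR peak and ranks none. No interval was computed, because the aligner, caller, IDR threshold and read depth were not given in the sources used here. Replicates are biological per the labels, with no further detail of how separate they were. The dm3 lists (4 of 8) were not used.

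Positions are 1-based on dm6 (Release 6), with genes of Ensembl release 115 on the same assembly, and Python 3.11.15, pandas 2.3.3 and numpy 2.4.6 were used. A summit was assigned to a gene by span (body plus 2000 bp upstream), TSS (500 bp) or a reach of 20 kb. Each IDR summit took the strongest replicate entry within 200 bp that was not nearer another IDR summit. Alternatives were TSS windows of 250 and 1000 bp, the body alone or 5000 bp upstream, a reach of 10 kb, the strongest entries of 1 replicate, the stronger part of the IDR list, other limits for shared summits, and wider or looser site searches. No test was made, and all results are counts and values. The counting code was tested on simulated data.

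The members and lists were chosen with earlier results of these data known. Named besides the members were genes whose TSS was nearest or within 500 bp of a summit in a member span, other bZIP and clock genes with a summit, and the 3 genes of nearest signal values. Other neighbours were named after their values were seen. Of 19 other bZIP names, 18 are distinct genes, because CG12850 is an older name of Atf-2. No protein comparison was made.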

Additional observations from a re-analysis of the deposited data

How the results depend on the processing

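Of 82 alternative values, 71 were equal to the main value or within 1.5 times it. The 71 include values of 0 against a main value of 0, as for the spans of CG7786, gt and slbo, which say little about stability. The limit takes in changes such as Pdp1 within 20 kb at 6 for 4 (without replicate 3). It also takes in Irbp18 at 4 for 6 (stronger summits alone) and all members at 15 for 21 (10 kb). The stricter list, the narrower spans and the looser match below hold fewer summits or more matches by construction. With the stronger 2022 summits of the IDR list, 1 gene had a TSS summit, where 11.2% of all genes then had one, 5 summits lay in the spans and 13 within 20 kb of all members. In that list vri had 1 summit in its span and 1 within 20 kb, and Pdp1 had 2 within 20 kb. Counted in the gene body alone, Irbp18 had 0 summits. With a reach of 10 kb, CG7786 had 1 summit and slbo 3. With 1 mismatch allowed, 4 windows held a PAR match.

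With the strongest entries of 1 replicate in place of the IDR list, Pdp1 had 3 to 5 summits in the span, the highest without replicate 3, and the cause was not tested. Members with a TSS summit then numbered 2 to 3, where 19.2% of all genes had one without replicate 3 and 19.4% without replicate 2. Members with a span summit numbered 3 to 3, against 27.5% and 27.8% of all genes, and summits in all spans 8 to 9. Shared summits numbered 16 at 100 bp and 18 at 500 bp or by overlap.

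No paired analysis was possible because there is only 1 group. With the depth unknown and each relaxed list ending at 30000 entries, a gene with no entry cannot be called unbound. Embryos of all ages and tissues were averaged, so binding in few cells cannot be told apart from weak binding. Nearness of a summit to a gene does not show that it acts on that gene, most of all where start sites lie close together.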
